A study of Xenopus laevis with 30 samples.

Results

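The extracellular matrix genes and matrix receptors of Xenopus laevis animal caps were followed across all 12 libraries of a knockdown study of the splicing factor Sf3b4. The members are the entries of the deposited count tables whose name, without its L or S ending, is an integrin, fn1, vcan, a laminin chain, a collagen chain, a syndecan, tnc, a nidogen, hspg2, sparc, a fibrillin, a talin, vcl, ptk2 or pxn. The rule reads only the name and no measured value. It found 112 entries of 80 genes among the 49109 entries of each table. No entry was matched to hspg2, the perlecan gene, or to tln1, so neither was read here. L and S mark the 2 homeologs, the gene copies that this allotetraploid frog inherited from its ancestral genomes.

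Integrins are receptors made of an alpha and a beta chain that bind matrix proteins outside the cell and, through talin, vinculin, paxillin and focal adhesion kinase, the actin cytoskeleton inside it. Integrin alpha5 beta1 is the classical fibronectin receptor, and fibronectin fibrils line the inner face of the frog's blastocoel roof, the tissue from which animal caps are cut. Laminins are trimers of an alpha, a beta and a gamma chain that, with collagen IV, nidogen and perlecan, build basement membranes. Neural crest cells leave the neural folds through such a matrix, and fibronectin is a known substrate of their migration.

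Animal caps are the ectoderm of the blastula. Injection took place at the 2-cell stage, caps were cut at stage 8 to 9, and RNA was extracted after 8 hours in culture. NWS explants came from embryos that had received noggin mRNA, wnt8 mRNA and an antisense morpholino against Sf3b4, and NW explants, the controls, from embryos with noggin and wnt8 mRNA alone. Every explant of the series therefore carried the crest-inducing mRNAs, and no explant without them was analysed here. Ribosomal RNA was removed before library preparation (depleted) or left in (undepleted), which gives 4 groups of 3 libraries: NWS depleted, NW depleted, NWS undepleted and NW undepleted. The protocols in the labels speak of individual explants and of biological replicates, with no line, sex or clutch given. Library numbers come from the run titles, and the source names of the NWS undepleted runs count the replicates differently. The p-values measure the spread between these libraries.

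Depth differed widely. Depleted libraries held between 351902 and 3570364 counts and undepleted ones between 3499960 and 4339788, but the entries LOC108705792 and ccdc50.L held 19.3% to 88.3% and 48.8% to 95.2% of them. NW library 3 supplied 71.4% of all depleted and 63.7% of all undepleted counts of the members. Its share of the counts of all entries outside the dominant pair was 65.1% and 52.2%. A floor of 3 counts corresponded to between 0.268 and 7.58 CPM (counts per 1000000 of the effective library size) in a depleted library and to between 0.110 and 2.76 CPM in an undepleted one, for counting error only. All 32 entries of a neural crest marker list had counts. Of 31 tested, 0 passed in edgeR's test in either preparation, against 0% (depleted) and 0.0159% (undepleted) of all entries. With a block for the library number, a pairing inferred from these same data, 2 passed in each, against 0.197% and 0.223%. They were id3.L and id3.S (depleted), and id3.L and sox10.S (undepleted). Unadjusted p in edgeR without the block was under 0.05 for 5 (depleted) and 6 (undepleted) of the 31, against 3.72% and 4.03% of all entries. Median log2 fold changes of the list were -0.90 and -0.98, beside -0.03 and -0.04 for all entries. Estimates were lower for 24 and higher for 7 in NWS depleted libraries, and for 25 and 6 in undepleted ones. Of all entries, 51.51% and 52.05% were lower. Their summed CPM ran from 1345 to 2694 in NWS and from 1434 to 3832 in NW depleted libraries, and from 369 to 812 and from 369 to 1283 in undepleted ones. The log2 fold changes of sf3b4.L were 0.10 ± 0.97 (depleted) and 0.34 ± 0.81 (undepleted, SE), and those of sf3b4.S were -0.87 ± 1.03 and -0.13 ± 0.83; the labels do not say how the morpholino acts, so mRNA levels do not check the knockdown.

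Of the 112 entries, 22 had no count in any library, 30 never exceeded 9 counts in a library, and 60 reached 10 or more in some library. Only 23 had counts in all 12. The expression filter left 27 members for testing in the depleted libraries and 28 in the undepleted ones. These were 31 entries in all, 24 of them in both preparations. An entry can pass the filter because 1 group is high, so the tested members do not stand for the rest, which are given by their counts. Reads may be split or lost between L and S copies, and their levels are uncertain to that extent.

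Per unit length, the most abundant members by mean deposited FPKM (counts scaled to transcript length and library size by the authors in each table separately) over the 12 libraries were itga5.L at 11.3, fn1.S at 9.73, lamc1.L at 8.28, lama1.L at 7.15 and fbn3.L at 6.52. They encode the alpha chain of the fibronectin receptor, fibronectin itself, the laminin gamma1 and alpha1 chains, and a fibrillin of the microfibrils. They ranked between 766 and 1497 among all entries. The order differs between groups: without NWS depleted library 3 the mean of itga5.L was 7.71 over the other 11 libraries, below 9.91 for fn1.S and 8.70 for lamc1.L. Among the depleted libraries itga5.L averaged 24.2 FPKM in NWS and 8.90 FPKM in NW, and lama1.L 6.68 FPKM in NWS and 16.9 FPKM in NW. By contrast, col4a1.L and col4a1.S, which encode a main collagen IV chain of basement membranes, had no count in any library.

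**Figure D1:**
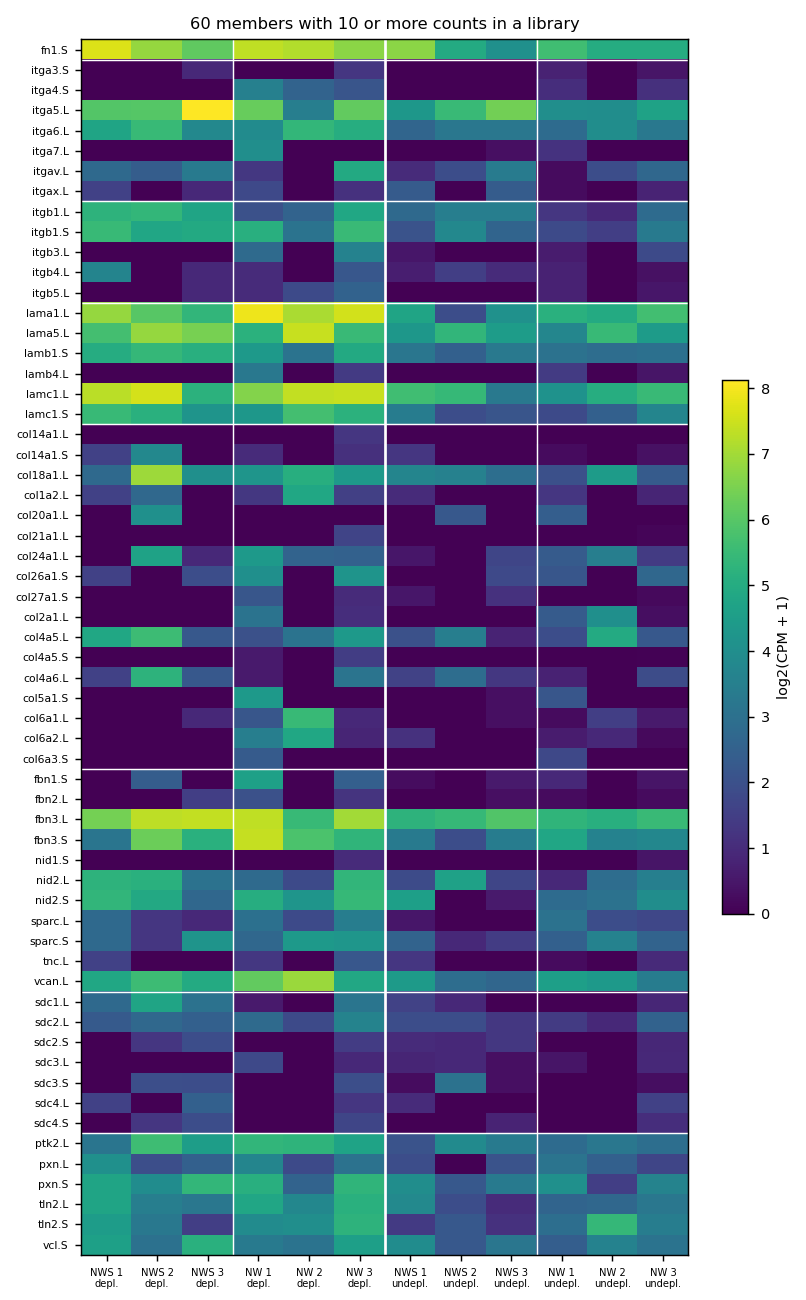
Level of the 60 members with 10 or more counts in at least 1 library, as log2(CPM + 1), with libraries in columns (NWS left of NW within each preparation) and entries in rows by role. Rows such as fn1.S, itga5.L, lama1.L, lamc1.L and fbn3.L have counts in all 12 columns, while most collagen rows are dark and several are lit in only 1 or a few libraries. The level of lama1.L falls to 2.75 CPM in NWS undepleted library 2, and that of lamc1.L to 8.64 CPM in NWS undepleted library 3.

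The study's main comparison asked what differed in explants with the Sf3b4 morpholino. No member passed in either preparation. In edgeR's quasi-likelihood test with Benjamini-Hochberg adjustment, 0 of 27 tested members had an adjusted p under 0.05 in depleted libraries, where 0% of 6585 entries did. In the undepleted libraries 0 of 28 passed, where 0.0159% of 6284 entries did. With the library number as a block, 0 members passed in either preparation, against 0.197% of all depleted entries (13) and 0.223% of all undepleted ones (14). DESeq2 gave an adjusted p to 35 depleted and 32 undepleted members and called 0 of them. Of all entries with an adjusted p it called 0.0915% and 0.223%. Limma-voom called 0 members in both preparations, against 0.0304% and 0.0159% of all entries.

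At an unadjusted p under 0.05 stood 1 member in the depleted libraries, lama1.L, against 3.72% of all entries. The undepleted libraries had 2, tln2.S and itga5.L, against 4.03%. With the block there were 2 depleted members, lama1.L and itga5.L (4.25% of all entries), and 4 undepleted ones, tln2.S, itga5.L, itgax.L and lama1.L (5.11%). Groups did not overlap, with NWS lower, for 1 member in the depleted libraries (lama1.L; 4.12% of all entries) and for 3 in the undepleted ones (tln2.S, lama1.L and fbn3.S; 3.76%). They did not overlap, with NWS higher, for 1 depleted member (lamb1.S; 4.53%) and for 0 undepleted members (4.25%). Among the 24 members tested in both preparations, 1 stood apart with NWS lower in both, lama1.L, as did 0.713% of 5326 entries; 0 stood apart with NWS higher in both, as did 1.22%.

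Directions of the estimates were divided. Of the tested members, 16 had a lower and 11 a higher estimate in NWS depleted libraries, with a median log2 fold change of -0.07, beside -0.03 for all 6585 entries. Of the undepleted estimates 15 were below and 13 above 0, and their median was -0.11, beside -0.04 for all 6284. Neither median was stable when single libraries were left out. In the depleted preparation it ran between -0.54 (without NWS library 2) and 0.15 (without NW library 1). In the undepleted one it ran between -0.56 (without NWS library 1) and 0.10 (without NW library 3). With no filter on low counts the medians were -0.81 and -0.31. Those are medians over a larger set, every member with any count in the preparation. Of the 24 members tested in both, 11 were lower in both, 9 higher in both, and col4a5.L, fn1.S, lamc1.L and ptk2.L had opposite signs. Run titles of both preparations begin with the same sample names. The labels do not say whether both preparations were made from the same RNA, so equal signs in both need not be independent results.

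The spread between libraries set the precision. Standard errors of the members' log2 fold changes ran from 0.64 to 1.46 (depleted) and from 0.58 to 1.37 (undepleted). An estimate beyond 1 log2 unit in either direction was reached by 10 of 27 depleted members (37.0%, beside 27.7% of all entries) and by 11 of 28 undepleted ones (39.3%, beside 22.7%). No member of that size passed with 3 libraries a group at this spread.

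**Figure D2:**
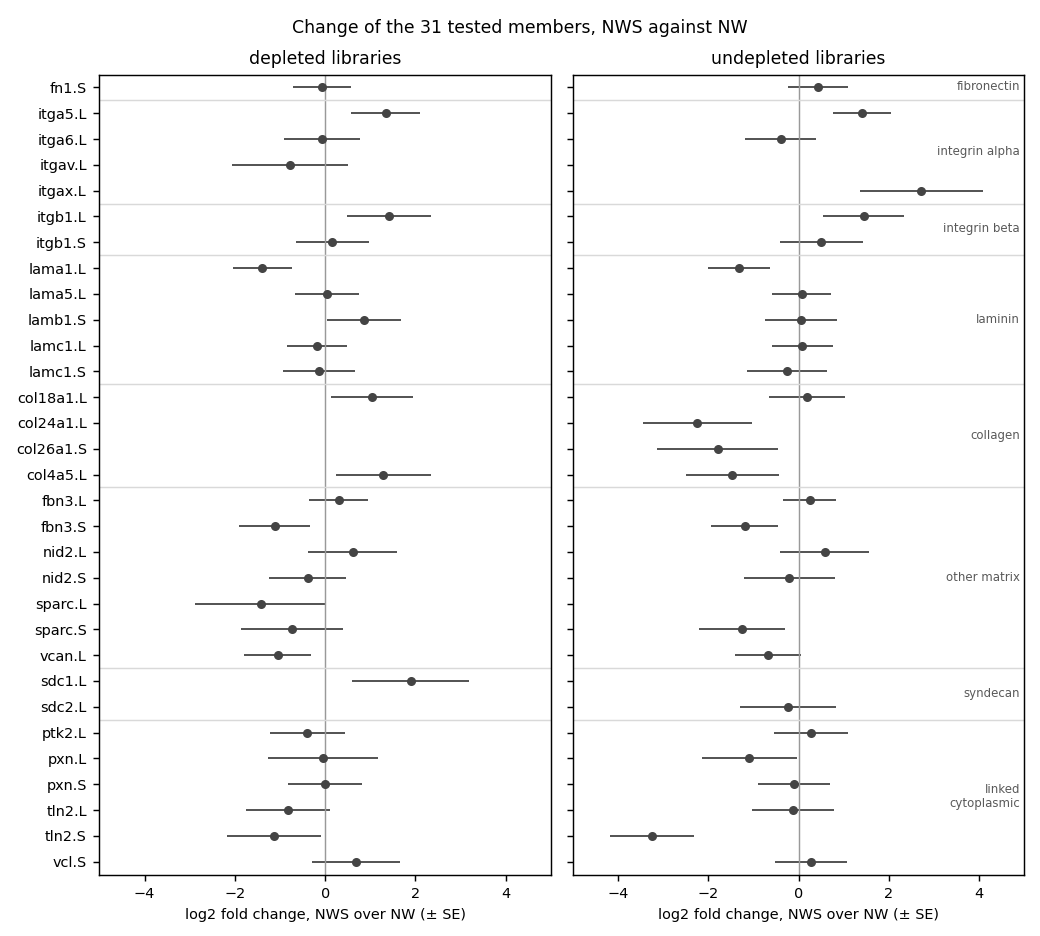
Log2 fold change, NWS over NW, of the 31 tested members by role, with standard errors as bars, in depleted (left) and undepleted (right) libraries. Most bars cross or come near 0; lama1.L lies at -1.39 and -1.32, itga5.L at 1.34 and 1.40, and tln2.S at -1.13 and -3.25.

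Among the matrix ligands, fibronectin did not separate the groups. Only the S copy, fn1.S, was matched by the rule. It had 206, 113 and 69.1 CPM in NWS depleted libraries 1, 2 and 3, against 161, 144 and 103 CPM in NW depleted ones. Undepleted NWS libraries had 104, 30.2 and 15.8 CPM, against 48.4, 31.3 and 31.6 CPM in NW. NWS library 1 was the highest and NWS library 3 the lowest of its preparation both times, so the NWS range enclosed the NW range. The log2 fold changes were -0.07 ± 0.64 and 0.43 ± 0.66 (SE; edgeR adjusted p = 0.999 and 1.00). Without NWS library 1 the undepleted value was -0.68.

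The laminin alpha1 chain, lama1.L, is a subunit of the laminin of early embryonic basement membranes and had the lowest unadjusted p of the depleted members. Its level was 114, 63.1 and 39.6 CPM in NWS depleted libraries, against 241, 136 and 187 CPM in NW depleted libraries. In the undepleted preparation NWS libraries had 25.6, 2.75 and 16.3 CPM and NW libraries 34.4, 30.4 and 49.7 CPM. The 2.75 CPM of NWS library 2 were 3 counts, the floor of that library. Every NWS library was below every NW library of its preparation. The log2 fold changes were -1.39 ± 0.65 (SE; edgeR adjusted p = 0.999, unadjusted 0.0414) and -1.32 ± 0.68 (adjusted p = 1.00, unadjusted 0.0646), and -1.48 and -1.61 with the replicate block (adjusted p = 0.629 and 0.557). Leaving out single libraries gave values between -1.85 and -1.11 in the depleted and between -1.88 and -0.80 in the undepleted preparation. In bulk explants, fewer cells that make a transcript and less of it per cell cannot be told apart. In the crest marker sums given above NWS library 1 exceeded NW libraries 1 and 2 in both preparations and NW library 3 was the highest, and their part in the laminin values was not tested.

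The alpha5 chain, lama5.L, did not share this pattern. Its CPM was 51.0, 113 and 86.6 in NWS against 35.4, 172 and 44.1 in NW depleted libraries, and 18.5, 39.3 and 21.5 in NWS against 12.2, 43.2 and 20.8 in NW undepleted libraries. The libraries numbered 2 were the highest of their group in all 4 groups. The estimates were 0.03 ± 0.71 and 0.07 ± 0.65 on the log2 scale.

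Added up per length, the FPKM of lama1.L and lama5.L was 14.5, 13.1 and 10.1 in NWS depleted libraries, against 24.6, 24.8 and 19.0 in NW. In the undepleted libraries it was 3.95, 3.12 and 3.12 in NWS, against 4.33, 5.99 and 5.71 in NW. The groups did not overlap in either preparation, and the sum was chosen after its values were seen and not tested. The share of lama1.L in this sum averaged 51.2% ± 20.2 in NWS and 75.1% ± 21.2 in NW depleted libraries, and 40.8% ± 29.0 in NWS and 67.3% ± 17 in NW undepleted ones (SD, n = 3 each), with overlapping ranges.

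The beta1 chain, lamb1.S, had 31.4, 41.6 and 34.1 CPM in NWS depleted libraries, against 19.5, 7.58 and 29.7 CPM in NW. All NWS libraries were above all NW libraries there, with an estimate of 0.86 ± 0.82. These levels rest on 16, 29 and 37 counts in NWS and on 39, 3 and 333 counts in NW. In the undepleted preparation the levels were 8.06, 4.58 and 8.64 CPM in NWS and 7.31, 6.44 and 7.07 CPM in NW, which overlap, with an estimate of 0.05 ± 0.79.

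The gamma1 chain, common to most laminin trimers, was read mostly from lamc1.L. This entry had 155, 194 and 35.9 CPM in NWS against 95.9, 164 and 174 CPM in NW depleted libraries, and 48.8, 42.1 and 8.64 CPM in NWS against 16.4, 32.2 and 44.6 CPM in NW undepleted libraries. NWS library 3 was the lowest library of both preparations and the groups overlapped. Its estimates were -0.18 ± 0.67 and 0.09 ± 0.67, and those of lamc1.S were -0.14 ± 0.80 and -0.26 ± 0.88. Of the 11 laminin entries, 2 had no counts and 3 more stayed under 10 counts in every library.

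**Figure D3:**
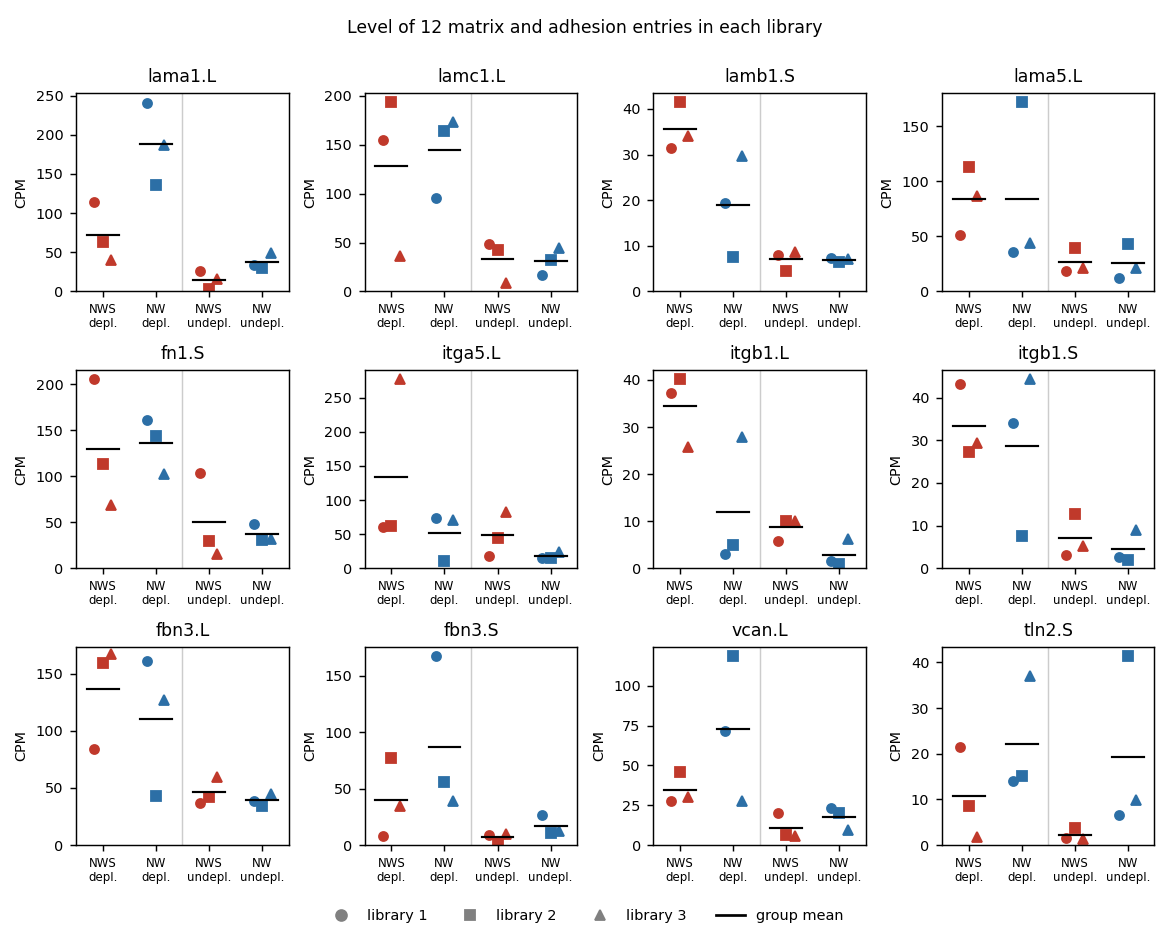
CPM of 12 members in every library, with circles, squares and triangles for libraries 1, 2 and 3, black lines for group means, NWS in red and NW in blue. For lama1.L the red points lie at 114, 63.1 and 39.6 against blue points at 241, 136 and 187 CPM in the depleted libraries, and for itga5.L a single red point at 277 CPM lies far above the rest.

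On the receptor side, the integrin alpha chains comprised 14 entries of 12 genes, of which 4 had no counts. The fibronectin receptor chain itga5.L had 60.8, 61.6 and 277 CPM in NWS depleted libraries, against 73.4, 10.1 and 71.2 CPM in NW. Its undepleted levels were 18.7, 43.9 and 82.4 CPM in NWS, against 15.2, 14.7 and 24.4 CPM in NW. NWS library 3 was the highest in both preparations, and the groups overlapped in both. The estimates were 1.34 ± 0.76 (edgeR adjusted p = 0.999) and 1.40 ± 0.65 (adjusted p = 1.00, unadjusted 0.0402). Without NWS library 3 they were 0.19 and 0.76.

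The shared beta1 chain was covered by both copies. The L copy, itgb1.L, had 37.3, 40.1 and 25.8 CPM in NWS depleted libraries, against 3.00, 5.05 and 27.8 CPM in NW. Undepleted NWS libraries had 5.84, 10.1 and 10.1 CPM of it, against 1.46, 0.920 and 6.15 CPM in NW. NW library 3 lay above the other NW libraries and within the NWS range both times. Estimates were 1.42 ± 0.93 and 1.44 ± 0.90, and 3.18 and 2.77 without NW library 3 (edgeR adjusted p = 0.999 and 1.00 with it). The values without it rest on few NW counts of itgb1.L. NW libraries 1 and 2 held 6 and 2 counts (depleted) and 8 and 1 (undepleted). The levels of NW library 2 lay below its floors of 7.58 and 2.76 CPM. The S copy, itgb1.S, had 43.2, 27.2 and 29.5 CPM in NWS against 33.9, 7.58 and 44.3 CPM in NW depleted libraries, and estimates of 0.16 ± 0.81 and 0.51 ± 0.91.

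Of the other integrin chains, the laminin receptor chain itga6.L had between 12.9 and 43.0 CPM in NWS and between 14 and 40.4 CPM in NW depleted libraries, with estimates of -0.07 ± 0.84 and -0.40 ± 0.78. The remaining tested alpha chains had lower mean CPM than itga6.L in every group. The alphaV chain, itgav.L, was tested in the depleted libraries only, at -0.78 ± 1.28, and 29.3 CPM in NW library 3 was its highest level. Its undepleted means leaned the other way, at 4.38 CPM in NWS and 2.85 CPM in NW. The entry itgax.L was tested in the undepleted libraries only, where 4.03, 0 and 4.2 CPM in NWS stood against 0.183, 0 and 0.737 CPM in NW, with an estimate of 2.72 ± 1.37. Library 2 had no count of it in either group. The depleted means of itgax.L leaned the other way, at 0.961 CPM in NWS and 1.25 CPM in NW.

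Some receptor entries came mostly from 1 library number. Of the counts of itgb3.L, 126 depleted and 68 undepleted ones came from NW library 3 and 17 from all other libraries; that library had the most counts outside the dominant entries in both preparations. The entry itga7.L had 30 and 7 counts in NW library 1 and 1 count elsewhere. The alpha4 chain, itga4.S, was at 0 in all NWS libraries of both preparations, against 10.5, 5.05 and 3.39 CPM in NW depleted libraries and 1.10, 0 and 1.18 CPM in NW undepleted ones. Against the mean NWS depleted floor of 4.32 CPM it was at least 1.46-fold lower. Without NW library 1 that ratio was 0.978, which is no bound. The undepleted NW mean of itga4.S, 0.758 CPM, lay below the mean NWS floor of 1.36 CPM, so no bound can be given there. These entries were picked after their values were seen.

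Among syndecans, heparan sulfate proteoglycans that act as coreceptors with integrins, all 7 entries had counts and 1 was tested in each preparation. The entry sdc1.L had 5.89, 25.8 and 7.37 CPM in NWS against 0.499, 0 and 7.94 CPM in NW depleted libraries, which overlap, with an estimate of 1.89 ± 1.30. The entry sdc2.L had an estimate of -0.23 ± 1.07 in the undepleted libraries. The fibronectin coreceptor entries sdc4.L and sdc4.S were at or below 4.60 CPM in every library and were not tested within a preparation. The later test of the treatment difference between preparations gave 2.42 ± 2.32 and 1.22 ± 2.30 (SE) for them.

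Inside the cell, talin links integrin tails to actin. The talin entry tln2.S had 1.61, 3.66 and 1.23 CPM in NWS undepleted libraries, against 6.58, 41.4 and 9.98 CPM in NW. The NWS levels rest on 8, 4 and 5 counts. Every NWS library was below every NW library, and NW library 2 was far above the others. The estimate was -3.25 ± 0.92 (edgeR adjusted p = 0.522, unadjusted 0.00169), -2.81 with the replicate block (adjusted p = 0.132) and -2.06 without NW library 2. In the depleted libraries the levels were 21.6, 8.60 and 1.84 CPM in NWS and 14, 15.2 and 37.1 CPM in NW, which overlap, with an estimate of -1.13 ± 1.05. The L copy, tln2.L, had estimates of -0.82 ± 0.93 and -0.12 ± 0.91.

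The other integrin-linked entries had no common direction. Focal adhesion kinase, ptk2.L, was at -0.40 ± 0.83 and 0.27 ± 0.81 on the log2 scale, and vinculin, vcl.S, at 0.69 ± 0.97 and 0.28 ± 0.80. The adaptor paxillin was at -0.04 ± 1.22 and -1.09 ± 1.04 for pxn.L, and at 0.00 ± 0.83 and -0.10 ± 0.80 for pxn.S. Groups overlapped for all 4 entries in both preparations.

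Among other matrix genes, fibrillin 3 was the most abundant per length, and its copies had estimates of opposite sign. The L copy, fbn3.L, had 84.4, 159 and 167 CPM in NWS against 161, 42.9 and 126 CPM in NW depleted libraries, and 37.1, 42.1 and 60.0 CPM in NWS against 38.9, 34.0 and 44.5 CPM in NW undepleted ones. The S copy, fbn3.S, had 7.85, 77.4 and 35.0 CPM in NWS against 167, 55.6 and 38.8 CPM in NW depleted libraries, and 9.07, 2.75 and 9.63 CPM in NWS against 27, 11 and 12.6 CPM in NW undepleted ones. The S copy was lower in every NWS than in every NW undepleted library, and overlapped in the depleted preparation. Estimates were 0.30 ± 0.65 and 0.24 ± 0.58 for fbn3.L, and -1.12 ± 0.79 and -1.20 ± 0.74 for fbn3.S. Leaving out NW library 1 changed the value of fbn3.S to -0.18 and -0.68.

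Versican, vcan.L, a chondroitin sulfate proteoglycan of crest migration routes, had 27.5, 45.9 and 30.4 CPM in NWS against 71.4, 119 and 27.9 CPM in NW depleted libraries. Undepleted levels were 20.3, 6.41 and 5.43 CPM in NWS and 23.2, 20.2 and 9.69 CPM in NW. The groups overlapped in both preparations, through NW library 3 in the depleted and NWS library 1 in the undepleted one. The estimates were -1.05 ± 0.74 and -0.68 ± 0.72 (edgeR adjusted p = 0.999 and 1.00).

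The basement membrane linker nidogen 2 had higher estimates for nid2.L, at 0.61 ± 0.99 and 0.57 ± 0.99, and lower ones for nid2.S, at -0.39 ± 0.86 and -0.21 ± 1.01. The S copy was read at 23.0, 0 and 0.494 CPM in NWS and at 6.21, 7.36 and 14.6 CPM in NW undepleted libraries, a wider range within NWS than between the groups. The collagen-binding glycoprotein sparc was at -0.74 ± 1.13 and -1.26 ± 0.95 for sparc.S, and at -1.43 ± 1.46 for sparc.L, which was tested in the depleted libraries only. In the undepleted libraries sparc.L had 0.403, 0 and 0 CPM in NWS against 7.31, 2.76 and 2.28 CPM in NW. The NWS levels lay below the floors of their libraries, and the level of NW library 2 rests on 3 counts.

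Collagens made up 49 of the 112 entries but little of the signal. Of them 14 had no counts and 32 in all stayed under 10 counts in every library. Beside the collagen IV entries at 0, col4a2.L had 3 counts in 1 library, whereas col4a5.L, another collagen IV chain, had counts in all 12. It had 27.5, 45.9 and 3.68 CPM in NWS against 3.00, 7.58 and 19.4 CPM in NW depleted libraries, and 3.02, 10.1 and 0.740 CPM in NWS against 2.74, 30.4 and 3.72 CPM in NW undepleted ones. The groups overlapped and the estimates had opposite signs, at 1.28 ± 1.05 and -1.47 ± 1.03.

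The basement membrane collagen col18a1.L had 120.4 CPM in NWS depleted library 2 and between 5.89 and 32.8 CPM in the other 5 depleted libraries. Its estimate of 1.04 ± 0.91 turned to -1.04 without that library, and the undepleted estimate was 0.18 ± 0.84. The entries col24a1.L and col26a1.S had the lowest undepleted collagen estimates, at -2.25 ± 1.2 and -1.79 ± 1.34, but these ran between -3.93 and -1.42 and between -7.68 and -1.06 without single libraries, with the lowest values without NWS library 3. They had at most 2.47 CPM in any NWS and at most 10.1 CPM in any NW undepleted library.

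The cartilage and notochord collagen col2a1.L was at 0 in all NWS libraries, against 7.49, 0 and 1.07 CPM in NW depleted and 4.02, 15.6 and 0.221 CPM in NW undepleted libraries. With a floor of 3 counts in each NWS library, the undepleted NW mean was at least 4.86-fold above the mean NWS floor, and at least 1.56-fold without NW library 2. The 0.221 CPM of NW library 3 lay below every NWS undepleted floor, the lowest of which was 0.604 CPM, so that library sets no bound. In the depleted preparation the NW mean lay below the mean NWS floor, so no bound can be given. This entry was not tested between the groups. In a list of mesoderm and notochord markers, 22 of 26 entries had counts and foxa2.L, foxc1.S, mespb.S and shh.S had none. Its summed level was 25.5 to 53.0 CPM in NWS and 32.4 to 145 CPM in NW depleted libraries, and 6.85 to 15.6 CPM in NWS and 8.28 to 16.8 CPM in NW undepleted ones. Its part in the collagen values was not tested.

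Some collagen entries came almost wholly from 1 library number. The entry col5a1.S had 40 depleted and 19 undepleted counts in NW library 1 and 1 count in all others. All 21 counts of col6a3.S also came from NW library 1, 8 of them depleted and 13 undepleted. The collagen VI entry col6a2.L was at 0 in NWS depleted libraries, against 9.99, 27.8 and 0.803 CPM in NW, whereas NWS undepleted library 1 had 1.21 CPM, more than any NW undepleted library. Against the mean NWS depleted floor of 4.32 CPM it was at least 2.98-fold lower, and at least 1.25-fold lower without NW library 2. The reverse was read for col20a1.L in the depleted preparation, with 15.8 CPM in NWS library 2 and 0 in all NW libraries. In the undepleted preparation NW library 1 had 4.39 CPM of it, more than NWS library 2 at 3.66 CPM, the only NWS library with counts there. These entries were chosen after their values were seen.

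Summed over all members the level per library did not separate the groups. It was 1187, 1481 and 1080 CPM in NWS against 1488, 1248 and 1400 CPM in NW depleted libraries, and 435, 350.5 and 331 CPM in NWS against 346, 431 and 404 CPM in NW undepleted ones. The groups overlapped, with log2 ratios of the means of -0.14 and -0.08. The preparations differ in how much of a library the dominant entries take, so CPM are compared within a preparation only.

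By role, the sums of the groups overlapped in CPM as well. Laminin chains averaged 353 ± 121 CPM in NWS and 475 ± 53.6 CPM in NW depleted libraries, and 87.1 ± 26.2 CPM in NWS and 109 ± 30.8 CPM in NW undepleted ones (SD, n = 3 each). Integrin alpha chains averaged 169 ± 115 CPM in NWS and 104 ± 43.5 CPM in NW depleted libraries, and 64.3 ± 39.1 CPM in NWS and 32.6 ± 7.97 CPM in NW undepleted ones. Integrin beta chains averaged 72.5 ± 17.7 CPM in NWS and 50.9 ± 38.7 CPM in NW depleted libraries, and 17.2 ± 7.14 CPM in NWS and 9.06 ± 8.24 CPM in NW undepleted ones. In deposited FPKM the depleted laminin sum did not overlap, with 22.8 to 40.8 in NWS and 41.4 to 48.0 in NW, while the undepleted one did. The log2 ratio of the depleted alpha chain sum, 0.70, was -0.02 without 1 library, NWS library 3. These sums were not tested.

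**Figure D4:**
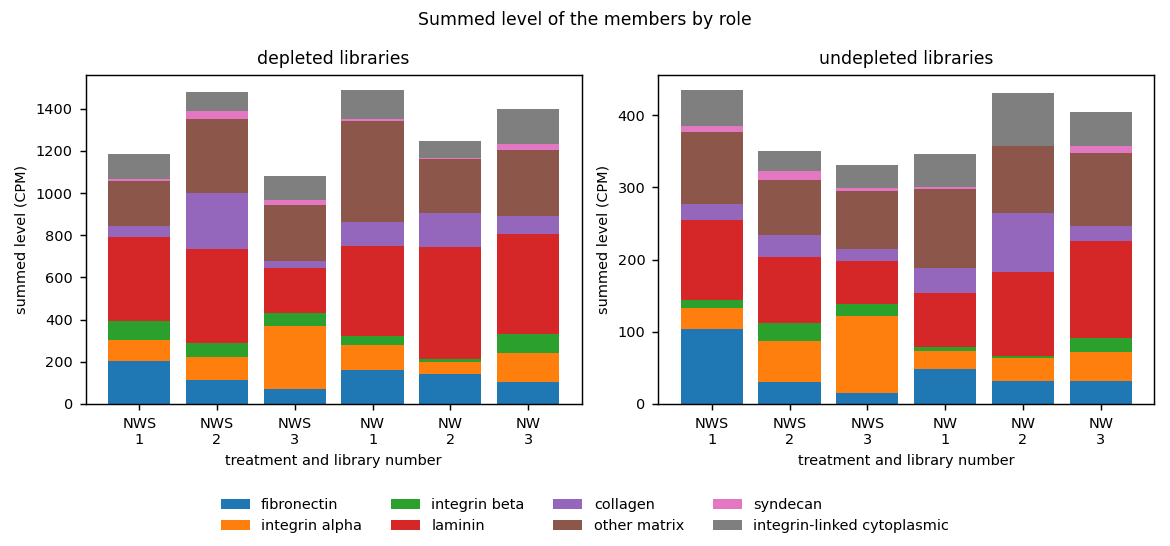
Summed CPM of the members by role in each library, with NWS libraries 1 to 3 left of NW libraries 1 to 3, for depleted (left) and undepleted (right) libraries on separate scales starting at 0. Totals lie between 1080 and 1488 CPM (depleted) and between 331 and 435 CPM (undepleted); the alpha chains take the most in NWS library 3 (302 and 107 CPM).

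L and S copies were also compared with each other, as the share of their summed FPKM that came from the L copy. Of 32 genes with L and S entries, 29 had counts in some library, 18 with L above S and 11 with S above L by mean FPKM. For fbn3 the L share was 91.7%, 67.8% and 83.0% in NWS against 49.6%, 44.2% and 77.0% in NW depleted libraries, and 80.7%, 93.9% and 86.4% in NWS against 59.6%, 75.9% and 78.4% in NW undepleted ones. The undepleted groups did not overlap. The means differed by 23.9 percentage points (exact two-sided permutation p = 0.2, adjusted 0.6 over the 3 genes tested) in the depleted and by 15.7 (p = 0.1, adjusted 0.3, 3 genes tested) in the undepleted libraries, and 3 libraries against 3 cannot go below 0.1. The permutation does not use the library numbers. The share was higher in NWS than in the same-numbered NW library in 6 of 6 pairs over both preparations, by 6.03 to 42.1 percentage points. This was not particular to fbn3: the count was 6 of 6 for itgb1, 5 for nid2, 4 for tln2 and 2 for lamc1. Both preparations carry the same library numbers and may share explants, so these pairs need not be independent and were not tested.

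The other genes tested differed less or varied more. For lamc1 the L share averaged 74.2% ± 9.56 in NWS and 78.7% ± 4.33 in NW depleted libraries, and 81.0% ± 12.3 in NWS and 82.3% ± 5.13 in NW undepleted ones (SD, n = 3 each; exact permutation p = 0.7 and 0.9). The difference of tln2 in the depleted libraries was 9.99 percentage points (exact permutation p = 0.5) and that of nid2 in the undepleted ones 27.1 (exact permutation p = 0.5). Without single libraries they ran between 0.87 and 16.3 and between 10.1 and 53.7 percentage points.

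For itgb1, whose copies summed to as few as 3 counts in a library and were therefore not tested, the L share was 41.1%, 54.4% and 41.5% in NWS against 6.67%, 35.1% and 33.7% in NW depleted libraries. It was 59.6%, 38.9% and 61.2% in NWS against 31.4%, 29.0% and 35.7% in NW undepleted libraries. Every NWS share was above every NW share of its preparation. In NW library 2 the share rests on 2 L and 3 S counts (depleted) and on 1 L and 2 S counts (undepleted). This gene was singled out after its values were seen, and how many other homeolog pairs stand apart in this way was not worked out.

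**Figure D5:**
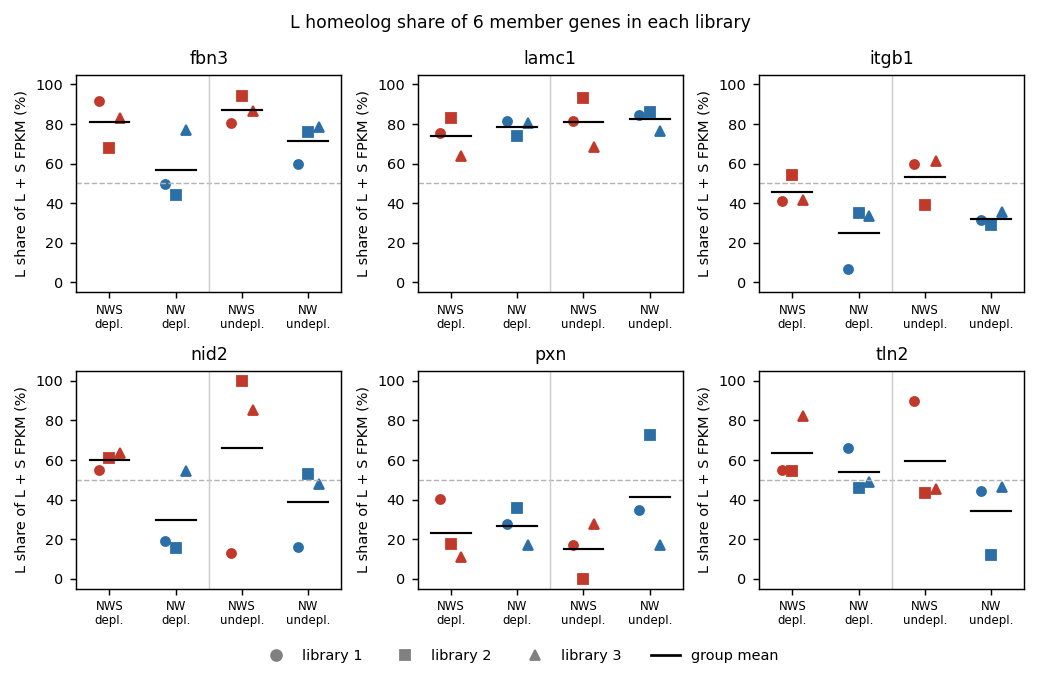
L share of the summed L and S FPKM of 6 genes in every library, in percent, with NWS in red, NW in blue, symbols for the library number, black lines for group means and a dashed line at equal shares. For fbn3 undepleted NWS points lie between 80.7% and 93.9% and NW points between 59.6% and 78.4%, whereas the ranges of lamc1 overlap.

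The treatment difference was compared between preparations as an interaction. In edgeR's quasi-likelihood test 0 of 42 members passed, where 0% of 13224 entries did. At an unadjusted p under 0.05 stood 0 members (1.75% of all entries). The 42 include col2a1.L and itga4.S, which had no count in any NWS library. Their standard errors were 5304 and 2626, so this test could not have called them. The lowest unadjusted p was 0.0732 for col4a5.L, with a difference of 2.61 ± 1.43 between its log2 fold changes (edgeR adjusted p = 1.00). With the replicate block 0 members passed, also against 0%, and 0 were under an unadjusted p of 0.05 (1.75%).

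Depleted and undepleted libraries were also set against each other within each treatment, in fits that normalise both together. Within NWS, 0 of 26 members passed in edgeR (0% of 5979 entries; 0 under an unadjusted p of 0.05, against 1.27%). Within NW, 0 of 34 passed (0.0376% of 10633 entries; 1 under an unadjusted p of 0.05, against 1.33%). That entry was col2a1.L, at -2.67 ± 1.34 in depleted over undepleted NW libraries. With the replicate block 0 members passed in either, against 0.167% of all entries within NWS and 0.103% within NW, and 0 were under an unadjusted p of 0.05, against 3.51% and 2.02%.

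Further matrix and adhesion genes were read from a list of 87 names outside the members, which covers matrix cross-linkers, glypicans, tensins, kindlins and adhesion signalling proteins. It matched 77 genes in 122 entries, of which 108 had counts. In edgeR 0 of 37 tested entries passed in the depleted libraries, with 24 lower and 13 higher and a median log2 fold change of -0.13. Of 40 undepleted entries 0 passed, with 18 lower and 22 higher and a median of 0.15. Unadjusted p was under 0.05 for 3 entries in each preparation, against 3.72% and 4.03% of all entries. They were bcar1.L, iqgap1.L and tns1.L (depleted), and fermt2.S, iqgap1.L and tns1.L (undepleted).

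Tensin 1, tns1.L, which links integrin tails to actin, was the entry of that list that passed with the replicate block. It had 8.66, 1.83 and 1.23 CPM in NWS undepleted libraries, against 23.6, 44.2 and 24.7 CPM in NW. Depleted NWS libraries had 39.2, 1.43 and 0 CPM of it, against 73.4, 42.9 and 98.9 CPM in NW. Every NWS library was below every NW library of its preparation, as for 0.713% of the 5326 entries tested in both. The undepleted estimate was -2.87 ± 0.78 (edgeR adjusted p = 0.521), and -3.23 with the block (adjusted p = 0.0126), a threshold that 0.223% of all entries passed. The depleted estimate was -2.52 ± 1.05 (edgeR adjusted p = 0.999), and -3.90 with the block (adjusted p = 0.0522). The block rests on a pairing of library numbers inferred from these same data. The scaffold entry iqgap1.L had estimates of 2.09 ± 0.93 and 1.96 ± 0.86, with overlapping groups.

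The tested members were longer by median than the tested entries as a whole. Their median length, worked out from deposited counts and FPKM, was 7.22 kb in the depleted and 7.27 kb in the undepleted set. Over all tested entries of each set it was 3.81 kb. The tested members ran from 1.80 to 13.4 kb, and untested members were left out of this comparison. Spearman's rho between length and log2 fold change was -0.246 over 27 depleted and -0.362 over 28 undepleted members, and -0.032 and -0.027 over all tested entries. These are descriptions across genes of the same libraries, and genes are not independent replicates.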

How the data were processed

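The submitters' processing notes name DESeq2, featureCounts, STAR and bcl2fastq without versions. The build, annotation and strand setting were not given in the sources used here. For each preparation the authors deposited raw counts per entry and library, with the 30 runs already added up into 12 libraries, and FPKM values scaled by size factors of the same table. Tests ran on the deposited counts in edgeR 4.0.16 (R 4.3.3): TMM normalisation, filterByExpr (minimum count 10), quasi-likelihood fits of the groups within each preparation, and Benjamini-Hochberg adjustment over all entries tested, with 0.05 as threshold. CPM are counts over the effective library size. A standard error is the log2 fold change divided by the square root of its F statistic. DESeq2 1.42.0 and limma 3.58.1 (voom) were alternatives, with other scalings, filters, entries summed or left out, and libraries left out. The test was tried on simulated data. Shares were compared by exact permutation. Names of 99 of the 112 entries are symbols of the RefSeq gene table (Xenopus_laevis_v10.1). Figures used Python 3.11.15 and matplotlib 3.10.9.

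Members, marker lists and alternatives were chosen with earlier results of these data known. Named entries were a set of 18 genes wherever tested. Of these, col2a1.L, sdc4.L and sdc4.S passed the filter only in fits that joined both preparations. Also named were members called in any fit, the 3 highest and 3 lowest fold changes per preparation, and the 5 highest mean FPKM. Members without overlap in both preparations were named as well. The entries col18a1.L, col4a5.L, fbn3.S, lama5.L, sdc2.L and tln2.L fell outside these rules and were chosen after their values were seen. An endoderm list had 13 of 19 entries with counts and 0 tested. An epidermis list had 31 of 33 and 13 tested, and a neural plate list 27 of 27 and 12 tested. They gave 0 calls in edgeR, against 0% (depleted) and 0.0159% (undepleted) of all entries. With the block 0 passed too, against 0.197% and 0.223%. Unadjusted p in edgeR was under 0.05 for 0, 2 and 1 entries in each preparation, against 3.72% and 4.03% of all entries. Epidermis medians were 0.37 (depleted) and 0.40 (undepleted) on the log2 scale, with 5 and 4 entries lower and 8 and 9 higher. Neural plate medians were 0.52 and 0.53, with 5 lower and 7 higher each time. The medians of all entries were -0.03 and -0.04, with 51.51% and 52.05% lower.

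The pairing of NWS and NW libraries by number was inferred from their deviations from the group means, not from the labels. Same-numbered libraries correlated at 0.141, 0.248 and 0.154 in the depleted preparation, and at 0.207, 0.255 and 0.128 in the undepleted one. Differently numbered libraries correlated at -0.188 to 0.0614 in the depleted and at -0.208 to 0.0389 in the undepleted preparation. All same-numbered values exceed 0.1, and the numbers were used as a block. The pairing was read from these same counts, which do not establish it, and calls with the block depend on it. In the interaction and between preparations, the block took same-numbered libraries of a treatment in both preparations as the same unit. Run titles share sample names between the preparations, but the labels do not state that both came from the same explants. Without the block these fits took all libraries as separate units.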

Additional observations from a re-analysis of the deposited data

How the results depend on the processing

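No member was called under any alternative in either preparation, in the interaction or between preparations (17 to 23 alternatives each). The lowest adjusted p of any member over the alternatives was 0.339 in the depleted libraries (DESeq2), 0.0579 in the undepleted ones (tln2.S in edgeR, without NW library 1), 1.00 for the interaction, and, between preparations, 0.821 within NWS and 0.770 within NW.

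Calls over all entries moved, and the cause was not tested. Depleted, 0 in the fit as reported became 20 without the low-count filter, 9 with DESeq2, 2 with limma-voom, 13 with the replicate block, 1 without both libraries numbered 2, 3 with all 12 libraries in 1 fit, and 0 to 24 without single libraries. Undepleted, 1 became 29 without the filter, 19 with DESeq2, 14 with the block, and 1 to 26 without single libraries. The block changed the call of no member.

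Of 55 member fold changes, 31 changed sign under at least 1 alternative (97 of 963 values); fbn3.S, itga5.L, itgb1.L, lama1.L, tln2.S and vcan.L kept theirs in both preparations. Sign changes outside single libraries were as follows, as log2 fold changes. DESeq2 gave 0.034 for pxn.L and 0.074 for pxn.S (depleted). Size factors of the DESeq2 kind gave -0.00482 for lama5.L, 0.0017 for pxn.L and 0.049 for pxn.S (depleted). All 12 libraries in 1 fit gave 0.011 for nid2.S, 0.00698 for pxn.S and 0.058 for tln2.L (undepleted). A minimum count of 20 gave -0.00312 for lama5.L (depleted). Summing L and S, which replaces both copies by 1 value, gave -0.16 for fbn3.L, 0.067 for nid2.S, 0.011 for pxn.L and 0.011 for pxn.S (depleted) and -0.058 for fbn3.L, 0.044 for lamc1.S, 0.17 for nid2.S and 0.21 for sdc2.L (undepleted). Limma-voom gave -0.061 for itgb1.S (depleted) and -0.0847 for itgb1.S, -0.30 for lamc1.L, -0.40 for nid2.L and -0.091 for ptk2.L (undepleted). The replicate block gave 0.54 for itgav.L and 0.24 for pxn.S (depleted) and -0.065 for lamc1.L and 0.024 for pxn.S (undepleted). Leaving out both libraries numbered 2 gave -0.77 for col18a1.L, -0.19 for fbn3.L, 0.039 for fn1.S, -0.13 for itgb1.S, 0.11 for lamc1.S, -0.097 for nid2.L, 0.017 for pxn.L and 0.0076 for sparc.S (depleted) and -0.43 for itgb1.S, -0.028 for lamc1.L, -1.20 for nid2.L, 0.23 for nid2.S, -0.0155 for ptk2.L and 0.15 for tln2.L (undepleted). Leaving out the dominant entries gave 0.019 for pxn.S (depleted).

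Leaving out single libraries also turned signs. Depleted values ran between -1.04 and 1.60 for col18a1.L, -0.10 and 0.67 for fbn3.L, -0.54 and 0.22 for fn1.S, -0.57 and 0.27 for itga6.L, -0.28 and 0.63 for itgb1.S, -0.30 and 1.04 for lama5.L, -0.60 and 0.26 for lamc1.L, -0.42 and 0.16 for lamc1.S, -0.88 and 0.078 for nid2.S, -1.14 and 0.053 for ptk2.L, -0.99 and 0.50 for pxn.L and -0.47 and 0.41 for pxn.S. Undepleted values ran between -0.28 and 1.51 for col18a1.L, -2.47 and 0.35 for col4a5.L, -0.68 and 0.91 for fn1.S, -0.11 and 1.62 for itgb1.S, -0.27 and 0.65 for lama5.L, -0.072 and 0.34 for lamb1.S, -0.34 and 0.56 for lamc1.L, -1.04 and 0.70 for lamc1.S, -1.22 and 1.54 for nid2.L, -4.67 and 0.38 for nid2.S, -0.10 and 0.72 for ptk2.L, -0.56 and 0.39 for pxn.S, -0.50 and 0.80 for sdc2.L, -1.90 and 0.42 for tln2.L and -0.24 and 0.69 for vcl.S. For the L share of lamc1 the difference ran between -8.87 and 0.61 percentage points (depleted) and between -7.41 and 4.9 (undepleted). Role sums, as log2 ratios, ran between -0.58 and 0.23 (depleted) and -0.69 and 0.85 (undepleted) for fibronectin, -0.02 and 0.98 for integrin alpha chains (depleted), -1.48 and 0.42 for collagens (depleted), and 0.37 and 2.5 for syndecans (undepleted); the other matrix sum was -0.47 in deposited FPKM. The other role sums kept their sign. The single-library runs of role sums and shares were added after the data were seen.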
